A study of Mus musculus with 9 samples.

Results

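Genes of the hypoxia response and of glycolysis were followed in Caki cells, a line derived from a clear cell renal carcinoma, that carried active YAP1, wild-type YAP1 or an empty vector. The set holds 36 genes, taken by gene symbol from a fixed list of hypoxia-inducible factor subunits, their hydroxylases, their target genes and glycolytic enzymes. All 36 were among the 58735 genes of the count table. Of these, 35 were among the 15492 genes with enough reads to be tested, and CA9 was not.

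Hypoxia-inducible factors (HIF) are dimers of an oxygen-regulated alpha subunit and the stable beta subunit ARNT. In the presence of oxygen, prolyl hydroxylases of the EGLN family mark the alpha subunits for destruction by the VHL ubiquitin ligase, so that HIF activity is set mainly at the level of protein. Loss of VHL is the hallmark lesion of clear cell renal carcinoma, and many HIF targets, among them most glycolytic enzymes, a carbonic anhydrase and VEGFA, are then active without hypoxia. YAP1 is a coactivator that works with TEAD factors and is held in the cytoplasm when the Hippo pathway phosphorylates it.

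RNA was sequenced from 3 groups of 3 libraries each. YAP1-S127A cells carried a retroviral vector for a constitutively active YAP1 whose inhibitory Hippo phosphorylation site, a serine, is changed to alanine, YAP1 cells carried a vector for the wild-type protein, and MX cells carried the empty retroviral vector. All cells, MX included, were selected with G418 and grown in DMEM/F12 medium with serum. The labels name neither which Caki line was used nor its VHL status, nor a hypoxic exposure, and separate cultures are not stated, so a p-value may reflect technical spread between libraries alone.

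Library depth spanned 15789722 to 24811150 counts. YAP1 transcript averaged 688 ± 55.0 CPM in YAP1-S127A cells, 1220 ± 268 CPM in YAP1 cells and 99.9 ± 8.64 CPM in MX cells (SD, n = 3 each). This sets both constructs apart from MX, but it cannot tell the mutant from the wild-type construct. YAP1 transcript was lower in YAP1-S127A than in YAP1 cells (log2 difference -0.83), so mutation and level cannot be told apart between the constructs. CPM is a gene's share of its library's counts, on library sizes scaled by the trimmed mean of M-values (TMM). Of 12 markers of kidney tubule and the PAX8 lineage 9 were tested, and PAX8, a transcription factor of the kidney lineage, averaged 262 CPM in YAP1-S127A, 297 CPM in YAP1 and 285 CPM in MX cells, while PAX2 was at 0 in every YAP1 and MX library. Their summed level was 926 to 959 CPM in YAP1-S127A, 1272 to 1352 CPM in YAP1 and 1609 to 1742 CPM in MX cells. Of the 9, 6 were lower in YAP1-S127A than in MX cells, beside 8.84% of all tested genes. Of 6 fibroblast genes 4 were tested and 3 were higher in YAP1-S127A than in MX cells, beside 9.53% of all tested genes. The summed level of the 6 was 2099 to 3820 CPM in YAP1-S127A, 1327 to 1681 CPM in YAP1 and 773 to 1308 CPM in MX cells, mostly COL1A1. DCN, the 1 tested fibroblast gene that did not pass in this comparison, averaged 0.792 CPM in YAP1-S127A, 0.371 CPM in YAP1 and 0.706 CPM in MX cells. Of 5 epithelial genes, CDH1 (log2 fold change -1.93) and EPCAM (-1.16) were lower and KRT8 (0.65) was higher in YAP1-S127A than in MX cells (60%, all tested genes 18.4%). The summed level of the 5 was 3222 to 4972 CPM in YAP1-S127A, 2974 to 3390 CPM in YAP1 and 2234 to 3381 CPM in MX cells. Markers of leukocytes, 6 genes with CD3E at 0 in every group, summed to at most 1.68 CPM in YAP1-S127A, 1.09 CPM in YAP1 and 1.39 CPM in MX cells. The part of these lists in the results was not tested. The mitochondrially encoded share of counts was 29.6%, 7.40% and 21.2% in the YAP1-S127A libraries, 3.50%, 8.60% and 11.4% in the YAP1 libraries and 5.89%, 6.60% and 1.896% in the MX libraries, in the order of their replicate numbers.

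In YAP1-S127A against MX cells, HIF1A, EGLN3, VEGFA, CA12, KDM3A, HK2 and GPI fell, EPAS1 rose, and 27 of 35 members did not pass the test. By quasi-likelihood testing in edgeR, with Benjamini-Hochberg adjusted p under 0.05 as the threshold, 8 of 35 members passed (22.9%), where 18.4% of all tested genes did. Of the 8, 7 were lower, against a background of 8.84% of genes lower, and 1 was higher, against 9.53%. The median log2 fold change of the members was -0.26, with 27 of 35 below 0 (77.1%), whereas the median of all tested genes was -0.0045, with 50.5% below 0. The share of members called lay close to that of all genes. With the mitochondrial share of reads as a covariate the members' median was -0.06 and that of all genes -0.0034. Libraries of both groups did not overlap for 14 members (40%), of which 10 were lower, and for 32.6% of all genes. With YAP1-S127A replicate 3 left out 2 members passed, HIF1A and EPAS1, and with MX replicate 2 left out 4 passed.

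Wild-type YAP1 gave 1 call, a lower EGLN3, among the 35 members (2.86%), where 6.81% of all genes were called, 3.23% higher and 3.58% lower. The members' median log2 fold change was -0.13, against -0.0036 over all genes, and 25 of 35 were below 0. At an unadjusted p under 0.05 there were 7 members (20%), all lower, the share of all genes being 19.8%, and 5 members did not overlap (14.3%, background 24.1%), again all lower. DESeq2 and limma-voom each called EGLN3 as the one member. With YAP1 replicate 1 left out 3 members passed, while without YAP1 replicate 2, YAP1 replicate 3 or MX replicate 2 the count was 0.

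Between the constructs, 1 of 35 members passed, EPAS1, which was higher in YAP1-S127A cells. Across all genes 1.97% passed, 1.13% higher and 0.839% lower. The members' median log2 difference was -0.11, against 0.0056 over all genes, and 5 members did not overlap (14.3%, background 19.6%). DESeq2 and limma-voom likewise called EPAS1 alone, and 3 members (8.57%) had an unadjusted p under 0.05, as did 12.3% of all genes. The count was 0 without any 1 of the YAP1-S127A libraries or without YAP1 replicate 2, and without YAP1 replicate 3 the 1 member called was CA12 in place of EPAS1.

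The comparisons with MX use the same 3 MX libraries, so their values are given side by side and are not independent. The group means of 19 of 35 members (54.3%) were ordered with MX highest, YAP1 between and YAP1-S127A lowest, an order that 25.8% of all tested genes had. The opposite order, with YAP1-S127A highest and MX lowest, was held by 4 members (11.4%) and by 26.2% of all genes.

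**Figure D1:**
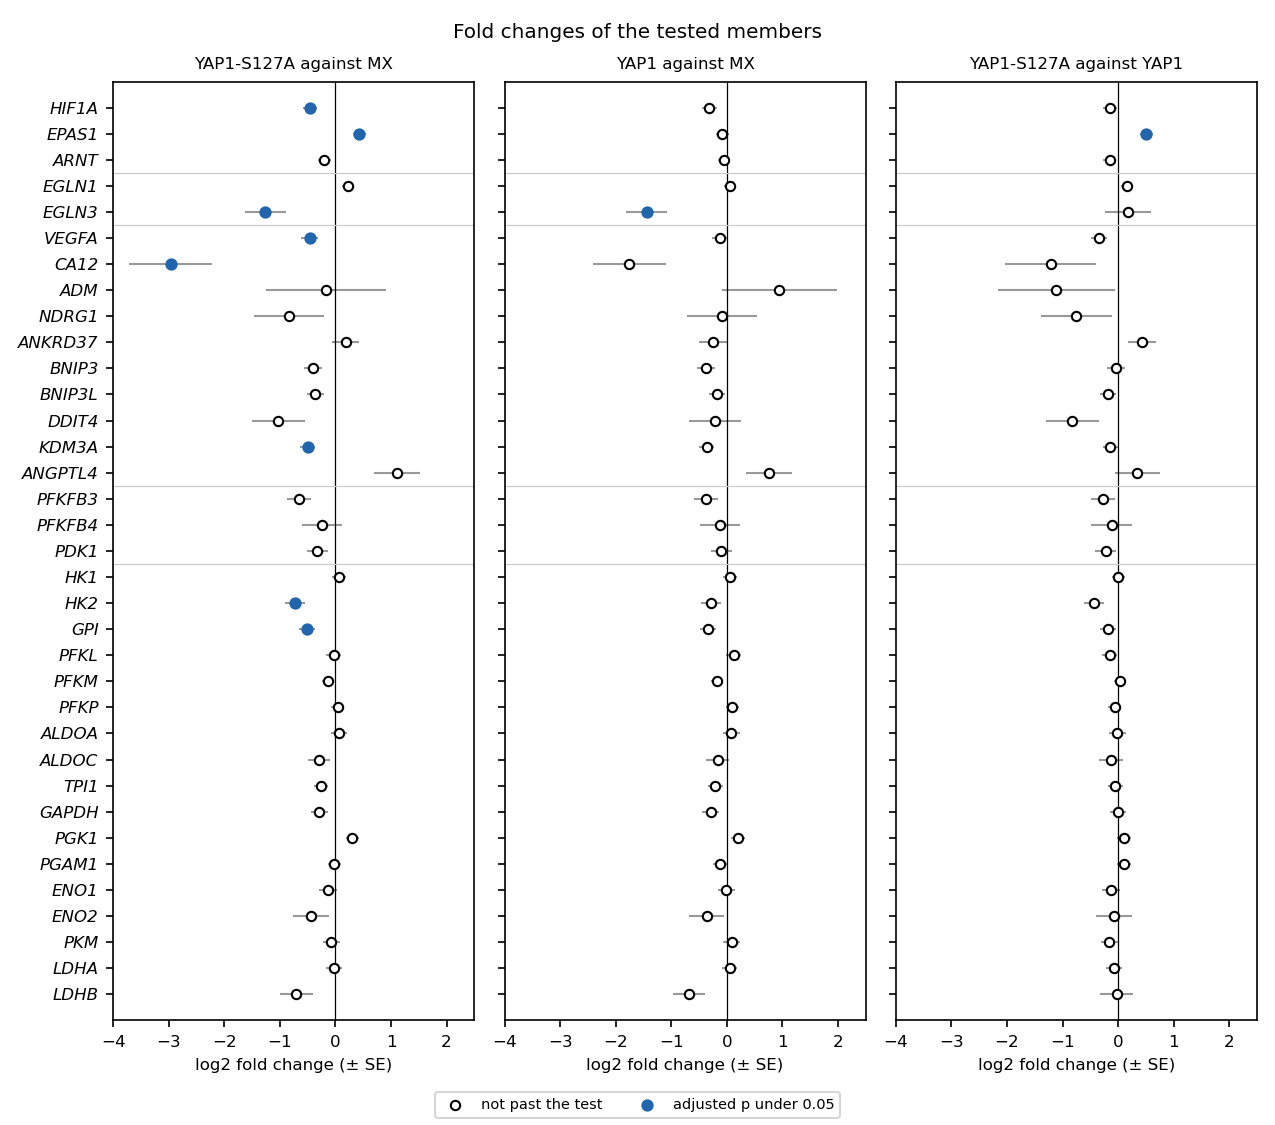
Log2 fold changes (± SE) of the 35 tested members in YAP1-S127A against MX, YAP1 against MX and YAP1-S127A against YAP1, with lines between the roles and filled points at an adjusted p under 0.05. In the first panel 7 filled points lie left of 0 and 1, EPAS1, lies right of it, while the other panels hold 1 filled point each.

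The alpha subunits moved in opposite directions in YAP1-S127A against MX. HIF1A (ENSG00000100644, chromosome 14, positions 61695513 to 61748259 as deposited), the alpha subunit found in nearly all tissues, had 422, 335 and 424 CPM in YAP1-S127A libraries, 425, 449 and 427 CPM in YAP1 libraries and 617, 486 and 514 CPM in MX libraries. Every library of both constructs lay below every MX library. The log2 fold change was -0.45 (SE 0.13, adjusted p = 0.0181, edgeR) in YAP1-S127A and -0.31 (SE 0.13, adjusted p = 0.172) in YAP1 cells, so that HIF1A fell in YAP1-S127A cells and did not pass in YAP1 cells. Over 20 alternative settings the adjusted p of the fall ran from 0.000263 to 0.106, and it exceeded 0.05 only without YAP1-S127A replicate 2.

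EPAS1 (ENSG00000116016, chromosome 2, positions 46293667 to 46386703), the second alpha subunit and the one tied to growth of clear cell renal carcinoma, had 49.9, 50.2 and 47.8 CPM in YAP1-S127A libraries. It had 38.7, 31.8 and 33.5 CPM in YAP1 libraries and 40.2, 33.4 and 36.2 CPM in MX libraries. The YAP1-S127A libraries lay above all others and within a narrow range, and the YAP1 and MX libraries overlapped. EPAS1 rose against MX, by 0.43 in log2 units (SE 0.12, adjusted p = 0.0147) and by 0.51 against YAP1 (SE 0.12, adjusted p = 0.0279), both by edgeR, while YAP1 against MX gave -0.08 (adjusted p = 0.783). Against MX the adjusted p ran from 0.00487 to 0.505 over 20 alternatives and exceeded 0.05 when MX replicate 2 or 3 was left out, with the mitochondrial share as a covariate and under scaling by total counts, where the log2 fold change was 0.15 and the median of all genes -0.28. Against YAP1 it ran from 0.00398 to 0.282, above 0.05 under total counts, with the covariate, without any 1 of the YAP1-S127A libraries and without YAP1 replicate 2 or 3.

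ARNT, the shared beta subunit, had 50.0, 48.3 and 49.2 CPM in YAP1-S127A, 55.4, 53.7 and 54.7 CPM in YAP1 and 64.2, 50.2 and 54.7 CPM in MX libraries. The YAP1-S127A libraries were lowest, yet the log2 fold change of -0.20 against MX (SE 0.11) missed the threshold (adjusted p = 0.247).

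Per length, in CPM per kilobase of gene length (RPKM), HIF1A stood far above EPAS1 in every group, at 76.4, 84.2 and 105 RPKM in YAP1-S127A, YAP1 and MX cells, whereas EPAS1 stood at 6.75, 4.75 and 5.01 RPKM. EPAS1 made up 7.69%, 9.56% and 7.38% of the summed RPKM of both subunits in YAP1-S127A libraries, 6.04%, 4.76% and 5.25% in YAP1 libraries and 4.40%, 4.63% and 4.73% in MX libraries. The share averaged 8.21 ± 1.18% in YAP1-S127A, 5.35 ± 0.642% in YAP1 and 4.58 ± 0.172% in MX cells (SD, n = 3 each), and no YAP1-S127A library overlapped another group. No separate test was made of this ratio, which restates both subunits' levels.

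**Figure D2:**
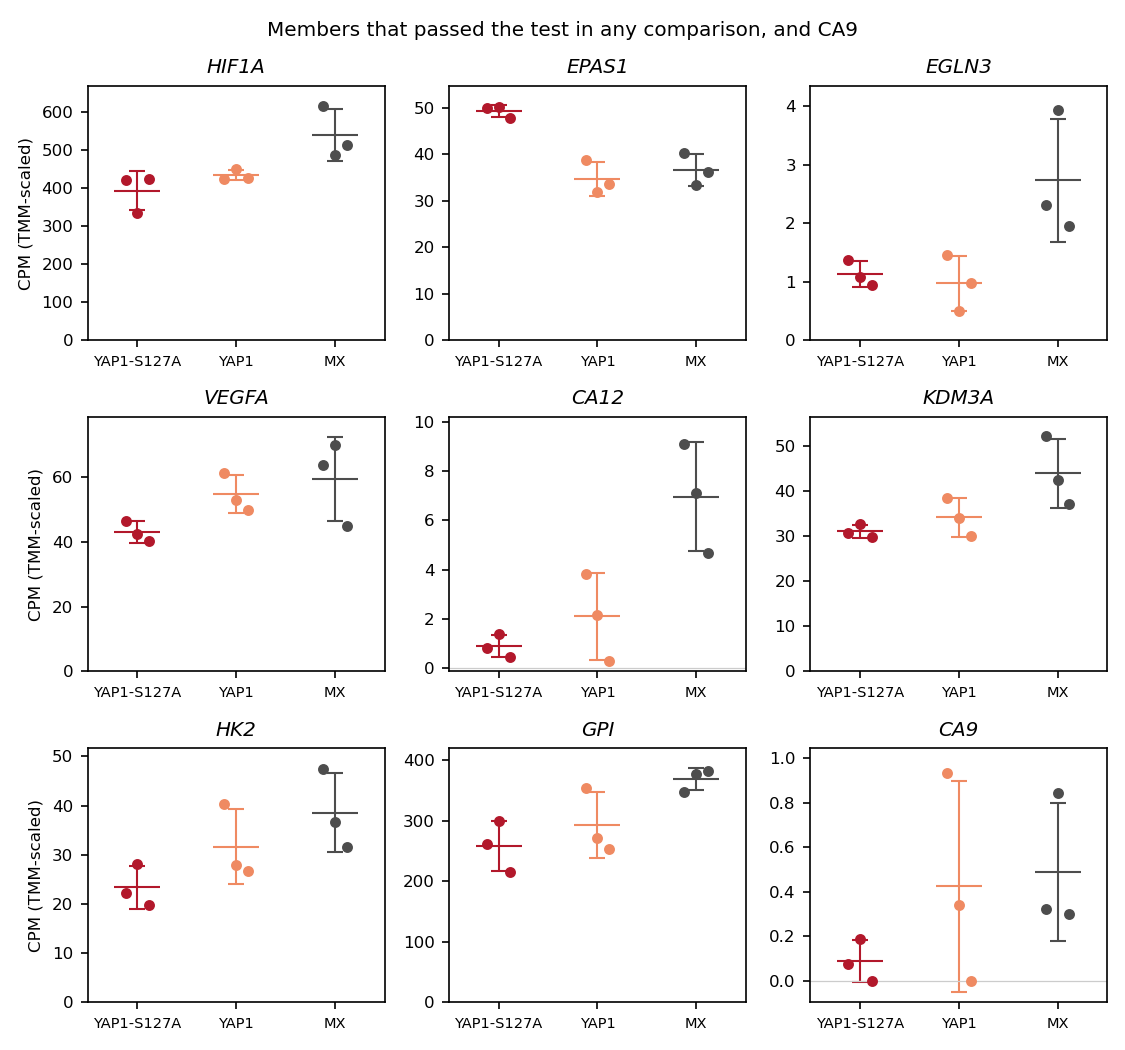
TMM-scaled CPM of the 8 members that passed the test in any comparison and of CA9, with 1 point per library, the mean as a line and the SD as the bar (n = 3 per group), left to right YAP1-S127A, YAP1 and MX. EPAS1 is highest in YAP1-S127A libraries, at 47.8 to 50.2 CPM, while the others are highest on average in MX libraries.

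Among the hydroxylases that act on the alpha subunits, EGLN3 fell with both constructs. EGLN3 (ENSG00000129521, chromosome 14, positions 33924231 to 34462774), itself induced by HIF, had 1.37, 1.08 and 0.95 CPM in YAP1-S127A libraries, 1.45, 0.51 and 0.98 CPM in YAP1 libraries and 2.32, 3.93 and 1.95 CPM in MX libraries. Neither construct's libraries overlapped those of MX, and the constructs overlapped each other. These levels rest on 17 to 18 reads per YAP1-S127A library, 9 to 28 per YAP1 library and 52 to 65 per MX library. By edgeR the log2 fold change was -1.26 (SE 0.37, adjusted p = 0.0232) in YAP1-S127A and -1.44 (SE 0.37, adjusted p = 0.0208) in YAP1 cells, and 0.18 (adjusted p = 0.913) between the constructs.

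Over 19 alternatives, the adjusted p of EGLN3 ran from 0.000646 to 0.151 in YAP1-S127A cells, above 0.05 when YAP1-S127A replicate 2 or 3, or MX replicate 2, was left out and with the mitochondrial covariate. In YAP1 cells it ran from 0.00176 to 0.118, above 0.05 without YAP1 replicate 2 or 3 and without MX replicate 2. SPTSSA, a gene on the same strand within the span deposited for EGLN3, had 341 to 751 reads per library, and the sources used here do not give how shared reads were divided.

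EGLN1, the main oxygen sensor of the family, had 121, 128 and 114 CPM in YAP1-S127A, 110, 106 and 106 CPM in YAP1 and 111, 95.3 and 103 CPM in MX libraries. All YAP1-S127A libraries lay above the others, and the log2 fold change against MX of 0.23 (SE 0.11) did not pass (adjusted p = 0.160).

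Of 10 tested HIF targets outside glycolysis, VEGFA, CA12 and KDM3A fell in YAP1-S127A cells (30%, background 18.4%) and 7 did not pass. Of all tested genes 8.84% were lower. The median log2 fold change of the 10 was -0.44. At an unadjusted p under 0.05 there were 5 lower and 1 higher, 6 of 10, where 31.3% of all genes lay under it. VEGFA (ENSG00000112715, chromosome 6, positions 43770184 to 43786487), the growth factor for blood vessels, had 46.7, 42.4 and 40.2 CPM in YAP1-S127A, 61.5, 53.1 and 50.0 CPM in YAP1 and 63.9, 69.9 and 44.9 CPM in MX libraries. MX replicate 3 lay within the range of the YAP1-S127A libraries. The log2 fold change was -0.47 (SE 0.14, adjusted p = 0.0296) against MX, where the median tested gene of chromosome 6 stood at 0.16, and -0.35 against YAP1 (SE 0.15, adjusted p = 0.320). The first ran from 0.000211 to 0.135 in adjusted p over 20 alternatives, above 0.05 without YAP1-S127A replicate 2 or 3, without MX replicate 1 or 2, with the mitochondrial covariate and with only these 2 groups in the fit.

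CA12 (ENSG00000074410, chromosome 15, positions 63321378 to 63382161), a carbonic anhydrase of the cell surface that helps to export acid, had the lowest log2 fold change of the 35 tested members. It had 0.84, 1.40 and 0.47 CPM in YAP1-S127A, 3.83, 2.15 and 0.31 CPM in YAP1 and 9.09, 7.13 and 4.70 CPM in MX libraries. All MX libraries lay above all libraries of both constructs, and the YAP1 libraries were widely spread. Log2 fold changes were -2.97 (SE 0.75, adjusted p = 0.0293) in YAP1-S127A and -1.76 (SE 0.66, adjusted p = 0.184) in YAP1 cells. Reads numbered 9 to 22 per YAP1-S127A library and 118 to 255 per MX library. The adjusted p of the fall ran from 1.11e-05 to 0.297 over 19 alternatives, above 0.05 in 9 of them, which include limma-voom, no filter on low counts, and leaving out any YAP1-S127A library, YAP1 replicate 2, or MX replicate 1 or 2.

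CA9 (ENSG00000107159, chromosome 9, positions 35673856 to 35681159), the carbonic anhydrase used as a marker of HIF activity in kidney cancer, was barely detected. It had 1, 3 and 0 reads in YAP1-S127A libraries, 18, 6 and 0 in YAP1 libraries and 9, 14 and 8 in MX libraries. A library with 0 reads allows up to 3 reads, which is 0.139 CPM in YAP1-S127A replicate 3 and 0.133 CPM in YAP1 replicate 3 before TMM scaling. With no filter on low counts its log2 fold change was -2.39 (SE 0.86, adjusted p = 0.0579, edgeR) in YAP1-S127A and -0.17 (SE 0.66, adjusted p = 0.984) in YAP1 cells.

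KDM3A (ENSG00000115548, chromosome 2, positions 86440647 to 86492716), an oxygen-dependent histone demethylase, had 30.7, 32.8 and 29.9 CPM in YAP1-S127A, 38.6, 34.2 and 30.0 CPM in YAP1 and 52.2, 42.6 and 37.2 CPM in MX libraries. No YAP1-S127A library reached the lowest MX library. Its fall in YAP1-S127A cells was -0.50 in log2 fold change (SE 0.14, adjusted p = 0.0137, edgeR). Its log2 fold change in YAP1 cells was -0.36 (SE 0.13, adjusted p = 0.122). The adjusted p of the fall ran from 0.000134 to 0.242 over 20 alternatives, above 0.05 without YAP1-S127A replicate 3 and with the mitochondrial share as a covariate.

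The mitophagy receptors BNIP3 and BNIP3L missed the threshold in YAP1-S127A cells, with log2 fold changes of -0.41 (SE 0.16, adjusted p = 0.0947) and -0.36 (SE 0.15, adjusted p = 0.0949). BNIP3 missed it in 16 and BNIP3L in 17 of 20 alternatives. Both passed under total counts, with no filter on low counts and with the replicate block. BNIP3 had 133, 154 and 124 CPM in YAP1-S127A, 174, 140 and 106 CPM in YAP1 and 195, 206 and 144 CPM in MX libraries, and the groups overlapped. DDIT4, an inhibitor of mTORC1 signalling, had 56.7, 53.1 and 43.3 CPM in YAP1-S127A, 159, 57.7 and 54.2 CPM in YAP1 and 99.0, 138 and 76.2 CPM in MX libraries. Its YAP1-S127A libraries lay below all MX libraries and overlapped the YAP1 libraries. The value against MX was -1.03 on the log2 scale (SE 0.48, adjusted p = 0.202, edgeR). The adjusted p of DDIT4 ran from 0.000569 to 0.629 and stayed above 0.05 in 18 of 20 alternatives. DDIT4 passed with only these 2 groups in the fit (-1.03, adjusted p = 0.00113) and without YAP1 replicate 1 (-1.04, adjusted p = 0.000569).

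ANGPTL4, a secreted inhibitor of lipoprotein lipase that also answers to PPAR factors, ran the other way. It had 158, 245 and 171 CPM in YAP1-S127A, 232, 131 and 89.4 CPM in YAP1 and 76.9, 124 and 66.9 CPM in MX libraries. All YAP1-S127A libraries lay above all MX libraries, while the log2 fold change of 1.11 (SE 0.41) did not pass (adjusted p = 0.122, edgeR). The adjusted p of ANGPTL4 ran from 0.00545 to 0.283 and stayed above 0.05 in 17 of 20 alternatives. ANGPTL4 passed with only these 2 groups in the fit (1.11, adjusted p = 0.00545). It also passed without YAP1 replicate 1 (adjusted p = 0.0156) and without YAP1 replicate 3 (adjusted p = 0.0401). Each of these settings leaves out YAP1 libraries, which are not part of this comparison.

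ADM, which encodes the vasodilator peptide adrenomedullin, had the widest relative spread of the tested members within the YAP1 and MX groups, with coefficients of variation of 118% and 78.1%, and 21.1% in the YAP1-S127A group. It had 13.6, 11.4 and 8.83 CPM in YAP1-S127A, 57.2, 9.63 and 5.86 CPM in YAP1 and 12.8, 22.9 and 2.86 CPM in MX libraries. NDRG1, a stress-induced gene linked to differentiation, had 67.3, 90.6 and 35.9 CPM in YAP1-S127A, 197, 84.3 and 44.9 CPM in YAP1 and 147, 127 and 71.4 CPM in MX libraries. For both genes the range within the YAP1 group alone covered all or nearly all of the other libraries, and their log2 fold changes against MX had SEs of 0.62 to 1.08. ANKRD37, an ankyrin repeat protein induced by HIF, averaged 5.50 ± 1.63 CPM in YAP1-S127A, 4.11 ± 1.11 CPM in YAP1 and 4.91 ± 0.765 CPM in MX cells (SD, n = 3 each) and did not pass.

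Of the enzymes that steer glycolytic flux, PFKFB3 came nearest to the threshold. PFKFB3, which makes fructose 2,6-bisphosphate, the activator of phosphofructokinase, had 41.9, 59.9 and 37.3 CPM in YAP1-S127A, 72.5, 54.6 and 41.2 CPM in YAP1 and 85.4, 74.0 and 59.1 CPM in MX libraries. YAP1-S127A replicate 2 just exceeded MX replicate 3, and the other libraries of these groups did not overlap. Its log2 fold change was -0.65 (SE 0.22, adjusted p = 0.0560), with a range of 2.01e-05 to 0.603 in adjusted p over 20 alternatives, of which 12 passed. PFKFB4, a paralogue, and PDK1, the kinase that keeps pyruvate out of the mitochondrial pyruvate dehydrogenase, had log2 fold changes of -0.24 (SE 0.36, adjusted p = 0.717) and -0.32 (SE 0.19, adjusted p = 0.262), and their groups overlapped.

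Of 17 glycolytic enzymes, HK2 and GPI fell in YAP1-S127A cells (11.8%, background 18.4%) and 15 did not pass. At an unadjusted p under 0.05 there were 3 lower and 1 higher (23.5%, all genes 31.3%). HK2 (ENSG00000159399, chromosome 2, positions 74833981 to 74893359), the inducible hexokinase that commits glucose to the pathway, had 22.2, 28.2 and 19.8 CPM in YAP1-S127A, 40.4, 27.8 and 26.7 CPM in YAP1 and 47.3, 36.7 and 31.6 CPM in MX libraries. Every MX library was above every YAP1-S127A library, and the YAP1 libraries overlapped both. The log2 fold change was -0.72 (SE 0.18, adjusted p = 0.00849, edgeR) against MX and -0.44 (SE 0.18, adjusted p = 0.321) against YAP1. Over 20 alternatives the first had an adjusted p of 5.90e-06 to 0.311, above 0.05 without YAP1-S127A replicate 3 and with the mitochondrial share as a covariate.

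GPI (ENSG00000105220, chromosome 19, positions 34359480 to 34402413), the next enzyme, which turns glucose 6-phosphate into fructose 6-phosphate, had 261, 299 and 215 CPM in YAP1-S127A, 354, 271 and 253 CPM in YAP1 and 348, 376 and 382 CPM in MX libraries. The MX libraries lay close together and above all YAP1-S127A libraries. GPI fell, with a log2 ratio of -0.51 to MX (SE 0.14, adjusted p = 0.0150), and its log2 fold change in YAP1 cells was -0.33 (SE 0.14, adjusted p = 0.186). The adjusted p of the fall ran from 0.000179 to 0.467, above 0.05 with YAP1-S127A replicate 3 or MX replicate 3 left out and with the mitochondrial share as a covariate.

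Most of the other enzymes had smaller log2 fold changes. The phosphofructokinases PFKL, PFKM and PFKP had log2 fold changes of -0.03, -0.13 and 0.04 in YAP1-S127A against MX, each with an SE of 0.11 to 0.13. ENO1, PKM and LDHA, which make phosphoenolpyruvate, pyruvate and lactate, had -0.14, -0.07 and -0.03, with SEs of 0.14 to 0.16. GAPDH, often used as a loading control, had 3665, 4203 and 3214 CPM in YAP1-S127A, 3989, 3742 and 3340 CPM in YAP1 and 3968, 4733 and 4855 CPM in MX libraries. Its log2 fold change was -0.29 (SE 0.15) in either construct (adjusted p = 0.195 in YAP1-S127A and 0.293 in YAP1), so that a difference of this size was not separated from the spread.

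PGK1, which makes the first ATP of the pathway, was higher in each YAP1-S127A library than in any MX library, at 870, 978 and 976 CPM in YAP1-S127A, 832, 898 and 885 CPM in YAP1 and 709, 846 and 727 CPM in MX. The log2 fold change of 0.31 (SE 0.12) did not pass (adjusted p = 0.0934, edgeR). The adjusted p of PGK1 stayed above 0.05 in 18 of 20 alternatives, and PGK1 passed by DESeq2 (0.0253) and with the replicate block (0.0496). LDHB, the lactate dehydrogenase subunit that favours the making of pyruvate, had 62.1, 68.4 and 60.7 CPM in YAP1-S127A, 87.1, 62.9 and 44.5 CPM in YAP1 and 148, 87.6 and 75.3 CPM in MX libraries. All YAP1-S127A libraries were below MX, at a log2 ratio of -0.70 (SE 0.29, adjusted p = 0.138, edgeR). The adjusted p of LDHB ran from 0.00908 to 0.578 and stayed above 0.05 in 14 of 20 alternatives. The settings in which LDHB passed include no filter on low counts, the replicate block and only these 2 groups in the fit. In YAP1 against MX it stayed above 0.05 in 18 of 20.

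**Figure D3:**
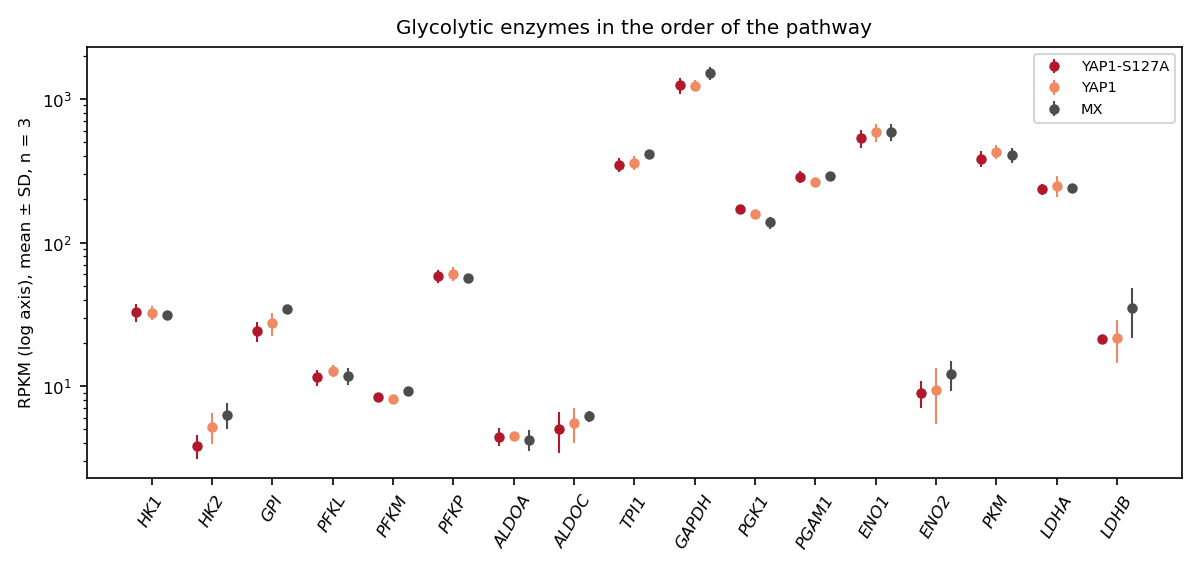
Level per length of each glycolytic enzyme, mean ± SD in RPKM on a log axis (n = 3 per group), in the order of the pathway from hexokinase to lactate dehydrogenase, with YAP1-S127A, YAP1 and MX left to right. The means span 3.85 to 1516 RPKM, and HK2 and GPI are lowest in YAP1-S127A cells, at 3.85 and 24.2 RPKM.

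Averaged over the 9 libraries, GAPDH reached 1331 RPKM and ranked 25 among the 15492 tested genes, followed by ENO1 at 570 RPKM, PKM at 406 RPKM, TPI1 at 374 RPKM, PGAM1 at 280 RPKM, LDHA at 241 RPKM and PGK1 at 156 RPKM. At the lower end stood PDK1 at 1.11 RPKM, CA12 at 0.455 RPKM and EGLN3 at 0.219 RPKM. The 17 enzymes together took 1.65%, 1.82% and 1.52% of all reads outside mitochondrially encoded genes in YAP1-S127A libraries, 1.97%, 1.67% and 1.62% in YAP1 libraries and 1.79%, 1.87% and 1.94% in MX libraries. The group averages of 1.66 ± 0.153%, 1.75 ± 0.188% and 1.87 ± 0.077% (SD, n = 3 each, YAP1-S127A, YAP1 and MX) lay about as far apart as the libraries within a group. In bulk RNA, a smaller number of cells using a gene and less of its RNA per cell cannot be told apart.

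ALDOA, the muscle-type aldolase that most cells use, stood at only 4.40 RPKM, with a mean of 17.4 CPM in YAP1-S127A, 17.6 CPM in YAP1 and 16.7 CPM in MX cells. Another entry on the same strand, AC093512.2, covers positions 30053090 to 30070420 of chromosome 16 and shares 6257 bases with ALDOA at positions 30064164 to 30070457. That entry held 17 to 40 reads per library and ALDOA 214 to 469. Reads that fit both entries may have been counted for neither, and the sources used here do not give the counting rule, so the level of ALDOA is uncertain. The gene table lists 62 pseudogene entries for GAPDH, 39 for BNIP3 and 13 for PGAM1, whose reads summed to at most 0.305%, 1.70% and 0.134% of those of the gene. SENP1 on the opposite strand overlaps PFKM and LRRC23 on the same strand overlaps ENO2, with 26.9% and 24.4% as many reads. On the opposite strand, UFSP2 overlaps ANKRD37 with 305% and ARHGEF39 overlaps CA9 with 1520% as many reads, and whether strand was used in counting is unknown, so both levels are uncertain.

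Shares within families of paralogues were set beside each other per length, with no test. PFKP made up 74.5 ± 1.24% of phosphofructokinase RPKM in YAP1-S127A, 74.3 ± 1.01% in YAP1 and 73.1 ± 1.60% in MX cells, and ENO1 made up 98.4%, 98.5% and 97.9% of ENO1 plus ENO2 in the same groups. HK2 made up 10.5 ± 0.383% of HK1 plus HK2 RPKM in YAP1-S127A cells (SD, n = 3 each). It made up 13.7 ± 1.50% in YAP1 and 16.9 ± 3.16% in MX cells, and YAP1-S127A did not overlap either other group. HKDC1, a further hexokinase at 28.9, 27.9 and 29.4 RPKM in YAP1-S127A, YAP1 and MX cells, was not part of this sum. LDHB made up 8.34 ± 0.216% of lactate dehydrogenase RPKM in YAP1-S127A, 7.90 ± 1.20% in YAP1 and 12.5 ± 3.66% in MX cells, with no overlap between MX and either construct.

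**Figure D4:**
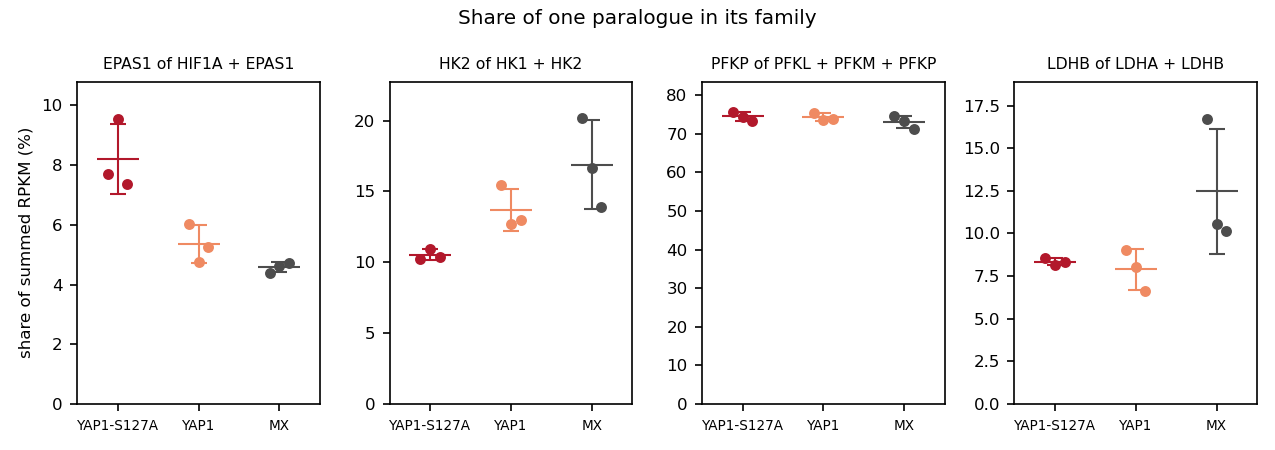
Share of 1 paralogue in the summed RPKM of its family, with 1 point per library, the mean as a line and the SD as the bar (n = 3 per group), left to right YAP1-S127A, YAP1 and MX. EPAS1 takes its highest share in YAP1-S127A libraries (7.38% to 9.56%), HK2 its lowest (10.2% to 11.0%), and PFKP lies between 71.4% and 75.8% in all 9 libraries.

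The members also varied together between libraries of the same group. YAP1 replicate 1 was the highest of its group in 30 of 35 members (85.7%) and in 10 of 10 HIF targets outside glycolysis, where it was the highest in 37.5% of all tested genes. YAP1 replicate 3 was the lowest in 26 members (74.3%, all tested genes 33.0%), again with 10 of 10 of these targets. In the YAP1-S127A group, replicate 2 was the highest in 28 members (80.0%, all genes 35.3%) and in 17 of 17 glycolytic enzymes, and replicate 3 was the lowest in 25 (71.4%, all genes 31.8%). In the MX group the targets and the enzymes parted. There replicate 3 was the lowest in 9 of 10 HIF targets (all genes 27.1%) but the highest in 9 of 17 enzymes (52.9%, all genes 25.7%). Over all 35 members MX replicate 3 was the highest in 9 (25.7%) and the lowest in 17 (48.6%).

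For DDIT4 and ADM the spread inside the YAP1 group was wider than the distance between group means. DDIT4 was at 159 CPM in YAP1 replicate 1 and 57.7 and 54.2 CPM in the other YAP1 libraries, and ADM at 57.2 CPM against 9.63 and 5.86 CPM. YAP1 replicate 1 had the smallest mitochondrial share of its group (3.50%) and replicate 3 the largest (11.4%). YAP1-S127A replicate 2 likewise had the smallest share of its group (7.40%), whereas MX replicate 3, lowest in the HIF targets, had the smallest of all (1.896%). With the mitochondrial share as a covariate, HIF1A was the 1 member still called in YAP1-S127A against MX, EGLN3 the 1 in YAP1 against MX, and EPAS1 no longer passed in either of its comparisons. The log2 fold changes of some lost calls were as large in that fit, at 0.49 against MX and 0.55 against YAP1 for EPAS1, and at -1.39 for EGLN3 and -0.54 for VEGFA in YAP1-S127A against MX. Others were smaller, at -2.06 for CA12, -0.41 for KDM3A, -0.44 for HK2 and -0.27 for GPI. The groups' average shares were 19.4 ± 11.2% in YAP1-S127A, 7.84 ± 4.02% in YAP1 and 4.80 ± 2.54% in MX cells, so the covariate and the group go partly together. Beyond that fit, its part in the members' values was not tested.

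**Figure D5:**
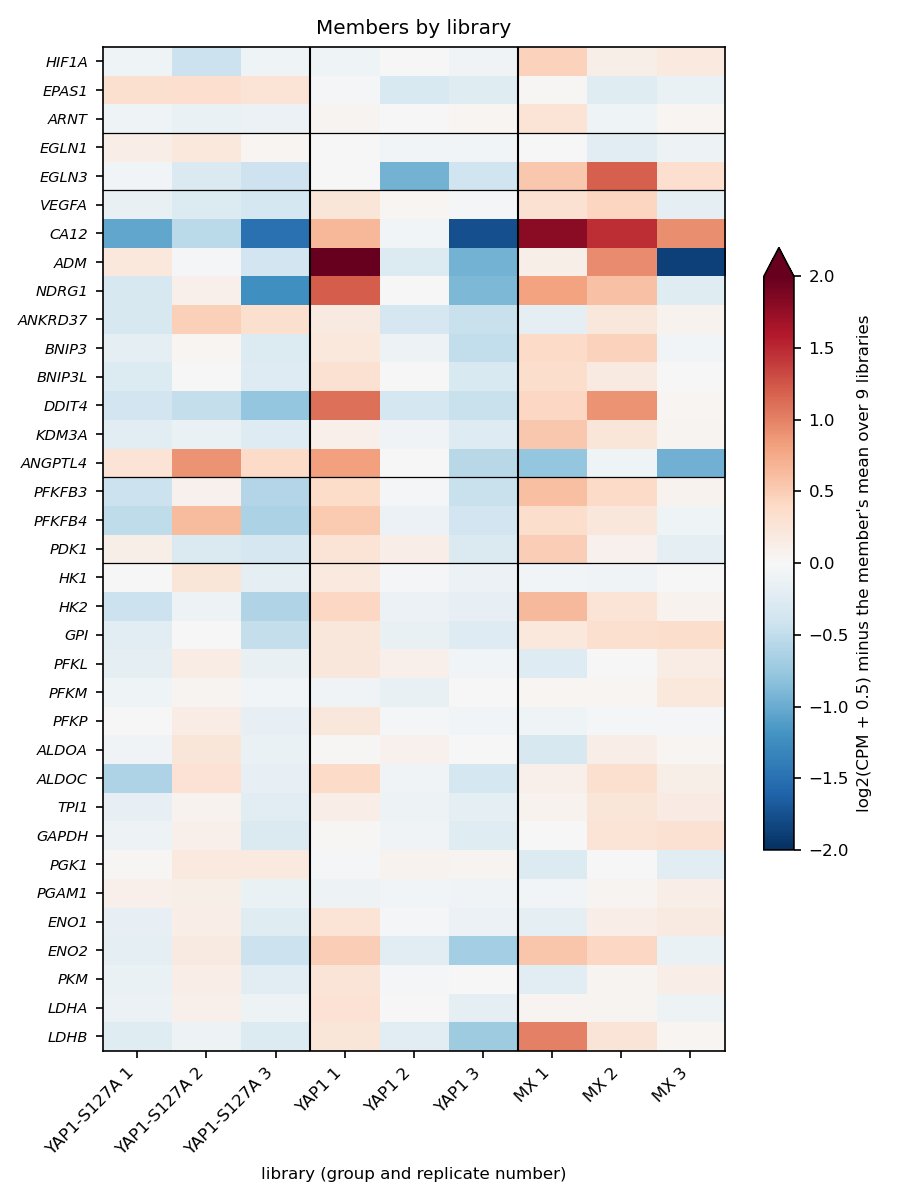
Level of each tested member in each library as log2(CPM + 0.5) minus the member's mean over the 9 libraries, red above and blue below it, with lines between roles and groups and a color scale that ends at 2, which ADM in YAP1 replicate 1 exceeds. YAP1 replicate 1 is the highest and YAP1 replicate 3 the lowest of their group in 10 of 10 HIF targets, and YAP1-S127A replicate 2 is the highest of its group in 17 of 17 enzymes.

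Other genes of the pathway were taken from wider lists, drawn up with earlier results of these data known. Of 30 tested further HIF targets, 3 fell in YAP1-S127A cells (8.84% of all tested genes lower) and 1 fell in YAP1 cells (3.58% lower). The median log2 fold change of the 30 was -0.11 in YAP1-S127A and 0.04 in YAP1 cells. LOX, a collagen crosslinking enzyme, and RRAGD, a GTPase of mTORC1 signalling, named after their values were seen, rose by 0.84 and 0.93 on the log2 scale in YAP1-S127A cells. The falls were those of NDUFA4L2 (-1.81), a mitochondrial protein induced by HIF in kidney cancer, PPP1R3C (-0.82), a glycogen-targeting subunit of a phosphatase, and TGFA (-0.54), a ligand of the EGF receptor. NDUFA4L2 also fell in YAP1 cells (-1.96, adjusted p = 0.00862) and, like CA9, was low, at 8 to 9 reads per YAP1-S127A library, 7 to 11 per YAP1 library and 30 to 50 per MX library. The glucose transporter SLC2A1 (log2 fold change -0.29, adjusted p = 0.255) and the lactate exporter SLC16A3 (0.06, adjusted p = 0.861) did not pass in YAP1-S127A against MX.

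Of 13 genes of the oxygen sensing machinery, CITED2 (0.71), a competitor of HIF for its coactivators, and SIAH2 (0.49), a ubiquitin ligase for the hydroxylases, rose and ARNT2 (-1.29), a paralogue of ARNT, fell in YAP1-S127A cells. The called share of this list was 23.1%, near the 18.4% of all tested genes. VHL averaged 22.2 ± 0.416 CPM in YAP1-S127A, 31.5 ± 9.44 CPM in YAP1 and 26.7 ± 7.24 CPM in MX cells and did not pass, its value in YAP1-S127A against MX being -0.27 on the log2 scale (adjusted p = 0.389).

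Of 18 genes of lactate and pyruvate handling, 2 rose and 2 fell in YAP1-S127A cells (22.2%, background 18.4%), and 1 rose and 2 fell in YAP1 cells (16.7%, background 6.81%). PDP1, the phosphatase that activates pyruvate dehydrogenase, had 32.0, 29.5 and 36.4 CPM in YAP1-S127A, 25.5, 24.9 and 27.2 CPM in YAP1 and 11.6, 12.3 and 10.9 CPM in MX libraries. The groups did not overlap, and PDP1 rose by 1.50 (SE 0.13, adjusted p = 8.27e-08) in YAP1-S127A and by 1.16 (SE 0.13, adjusted p = 7.70e-06) in YAP1 cells on the log2 scale. PDK4, a kinase that opposes it, had 4.42, 5.20 and 6.30 CPM in YAP1-S127A, 8.03, 9.29 and 7.32 CPM in YAP1 and 16.4, 10.3 and 15.2 CPM in MX libraries.

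PDK4 fell by 1.39 (SE 0.19, adjusted p = 4.27e-05) in YAP1-S127A and by 0.78 (SE 0.19, adjusted p = 0.0129) in YAP1 cells on the log2 scale. MPC1 rose by 0.53 (adjusted p = 0.0421) and MPC2 fell by 0.63 (adjusted p = 0.00210) in YAP1-S127A cells, although both encode subunits of the same mitochondrial pyruvate carrier, and MPC2 fell by 0.67 (adjusted p = 0.00309) in YAP1 cells. Of 9 tested genes of gluconeogenesis and glycogen, PYGB (-0.60), the brain-type glycogen phosphorylase, and SLC37A4 (-0.58), the glucose 6-phosphate transporter, fell in YAP1-S127A cells, and SLC37A4 (-0.53) fell in YAP1 cells. The called share was 22.2% in YAP1-S127A cells (background 18.4%) and 11.1% in YAP1 cells (background 6.81%). Of 14 further glycolytic isoenzymes 5 were tested, and ENO3, the muscle enolase, rose by 0.88 (adjusted p = 0.00887) in YAP1-S127A cells (20% of the 5, background 18.4%).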

How the data were processed

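For 9 libraries the authors deposited a table of unnormalized read counts by gene, with each gene's length in bases and its coordinates beside them. Per the labels' protocols, stranded libraries of messenger RNA were sequenced. Per the submitters' processing notes HISAT2, Cufflinks, Salmon 1.9.0 and the mouse build GRCm39 were used, but the identifiers are human; the sources used here do not give the human build, the counter or its use of strand.

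Genes were kept by filterByExpr, scaled by TMM and fitted together by group with robust dispersions in edgeR 4.0.16 (R 4.3.3). The two-sided quasi-likelihood p was adjusted over all 15492 genes by Benjamini-Hochberg, with a threshold of 0.05. SE is the size of the log2 fold change over the root of the test's F. RPKM used the deposited lengths. At these depths 3 counts stand for 0.121 to 0.190 CPM, and floors cover counting error only. Alternatives were scaling, filters, gene sets, DESeq2 1.42.0, limma-voom (limma 3.58.1), 2-group fits, a mitochondrial covariate, a replicate block and each library left out. The fits were also run on simulated data, and no outcome of those runs is given or drawn on here.

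Members, lists and the naming rule were chosen with earlier results of these data known. Of the other lists up to 4 genes per comparison with the smallest p were named, plus LOX, RRAGD, VHL, SLC2A1 and SLC16A3, picked after their values were seen. The symbol of 1 listed gene, G6PC1, was matched by its older name. A result for 1 listed gene is not reported here.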

Additional observations from a re-analysis of the deposited data

How the results depend on the processing

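Counts of calls depended on scaling, on the mitochondrial share and on single libraries. In YAP1-S127A against MX the 8 members called became 14 under total counts (0 higher, 14 lower), 1 with the mitochondrial covariate and 2 to 12 with 1 library left out. The 2845 genes called in all became 4447 (611 higher, 3836 lower), 1405 and 1847 to 3079 under the same settings, and 1894 with at least 10 CPM in 3 libraries. Of the fits with 1 library left out, the lowest counts came without YAP1-S127A replicate 3. Scaling by total counts moved the median log2 fold change of all genes to -0.28, to -0.20 between the constructs and to -0.08 in YAP1 against MX.

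In YAP1 against MX the 1 member became 2 with no filter, 0 with at least 10 CPM in 3 libraries, where EGLN3 is not tested, and 0 to 3 with 1 library left out. The 1055 genes became 625 under the stricter filter and 601 to 1423 with 1 library left out, the lowest without YAP1 replicate 3. Between the constructs the 1 member became 0 with the covariate and 0 to 1 with 1 library left out, and under total counts it was VEGFA, lower. The 305 genes became 616 under total counts, 520 with no filter, 187 under the stricter filter, 475 by DESeq2, 478 with only 2 groups fitted and 126 to 465 with 1 library left out, the lowest without YAP1-S127A replicate 3.

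Replicate numbers did not pair the libraries: deviations of same-numbered libraries correlated at -0.18 to 0.20, with 1 of 9 pairs over 0.1. Each library was set against each of the other groups, and in 6 of these 18 cases its own number correlated best. With the replicate block 13 members were called in YAP1-S127A against MX, 4 in YAP1 against MX and 1 between the constructs, and 472 genes in all in the last.

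Over 105 log2 fold changes of members and 2091 values under alternatives, 2005 stayed on their side of the threshold, 41 calls were lost, 45 were gained and 0 called values changed sign. Of 228 paralogue shares under alternatives 31 moved by more than 1 SD, all 31 by using counts in place of counts per length. Leaving 1 library out of a group cannot move its mean by 1 SD. Those alternatives therefore could not count as moved and do not show how far the shares rest on single libraries. Depth limits CA9, CA12 and EGLN3, and the causes of these changes were not tested.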
